A study of Mus musculus with 51 samples.

Results

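The 43 genes described here encode the contractile machinery of striated muscle and the proteins that excite it. They are 11 genes of the thin filament, 11 of the thick filament and M band, 5 of the Z disc and cytoskeleton, 9 of excitation and calcium handling, 3 subunits of the nicotinic acetylcholine receptor, 3 enzymes of energy metabolism and 1 cell adhesion gene. The genes were listed by symbol, and all 43 were measured among the 18194 genes to which the arrays assigned a single symbol. RNA came from wild-type FVB mouse embryos, taken daily as forelimb and as whole embryo between E9.5 and E13.5 and as hindlimb between E10.5 and E13.5. Each limb array held the limb buds of 1 embryo, and all embryos of a stage were littermates, so that stage and litter cannot be told apart. The p-values measure the spread between littermates, pooled over all 14 groups of arrays. In order of stage, forelimb was on 3, 5, 4, 5 and 5 arrays, hindlimb on 4, 5, 5 and 5, and whole embryo on 2 at each stage, 51 arrays in all. No group was mutant or treated.

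Limb muscle forms from precursor cells that leave the somites, enter the limb bud, stop dividing and fuse into multinucleated fibres. In a fibre, actin-based thin filaments slide past myosin-based thick filaments, anchored at the Z disc and cross-linked at the M band. Acetylcholine released by a nerve opens its receptor at the membrane, the membrane signal is sensed by a calcium channel of the transverse tubule, and the ryanodine receptor then releases calcium from the sarcoplasmic reticulum onto the troponin of the thin filament. Because the RNA is from bulk tissue, more muscle cells and more RNA per muscle cell cannot be told apart in any value below.

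Promoter sequence from RefSeq (GRCm38.p6, from 250 bases before to 50 after the start of transcription) was found for 34 of the 43 genes, in 37 promoters, those of Tnni1 and of Ldb3 overlapping each other. Motifs were therefore counted once per gene, in any of its promoters, against the 27025 genes of the same table. The E-box CANNTG, bound by the myogenic factors Myod1 and Myog among others, was searched on both strands, and its form CAGCTG is also counted among the CANNTG. The form CAGCTG was present in 18 of the 34 genes (52.9%) and in 18.3% of all genes, while another form, CAGGTG or its reverse complement CACCTG, was present in 23.5% against 22.6%. Any CANNTG was present in 88.2% of the members and in 75.0% of all genes. The CArG box, the site of serum response factor, was present in 4 of the 34 genes against 1.8% of all, the MEF2 site in 5.9% against 0.6%, CATTCC or its reverse complement GGAATG in 26.5% against 16.6%, and TATAAA in 20.6% against 15.7%. A match is a description of the letters and not a bound site, and Ckm and Eno3, which did not rise in either limb by the gene averages below, each held 1 CAGCTG too. The 250 bases before the start are shown for the receptor subunits Chrna1 (chr2:73580339-73580588, minus strand) and Chrng (chr1:87205561-87205810, plus strand), each with 2 CAGCTG and 3 CANNTG, for the myosin light chain Mylpf (chr7:127211358-127211607, plus strand) with 1 CAGCTG, and for the actins Acta1 (chr8:123894776-123895025, minus strand) and Actc1 (chr2:114052876-114053125, minus strand), each with 1 CArG box. Capitals mark every CANNTG, MEF2 site and CArG box, and each sequence is read 5′ to 3′ on the strand of its gene.
Chrna1: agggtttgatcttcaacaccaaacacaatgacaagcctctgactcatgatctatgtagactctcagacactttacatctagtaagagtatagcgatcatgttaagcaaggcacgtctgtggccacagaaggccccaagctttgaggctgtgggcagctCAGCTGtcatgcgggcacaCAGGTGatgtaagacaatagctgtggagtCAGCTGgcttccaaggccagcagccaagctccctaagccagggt
Chrng: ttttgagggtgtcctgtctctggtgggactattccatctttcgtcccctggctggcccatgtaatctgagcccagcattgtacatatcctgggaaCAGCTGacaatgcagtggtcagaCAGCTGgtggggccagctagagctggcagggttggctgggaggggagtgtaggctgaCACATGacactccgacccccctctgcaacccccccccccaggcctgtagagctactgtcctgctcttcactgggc
Mylpf: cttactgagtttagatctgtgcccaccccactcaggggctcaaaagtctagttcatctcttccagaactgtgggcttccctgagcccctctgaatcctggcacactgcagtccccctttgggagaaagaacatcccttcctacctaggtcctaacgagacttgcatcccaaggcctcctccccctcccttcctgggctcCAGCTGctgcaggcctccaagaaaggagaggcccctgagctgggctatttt
Acta1: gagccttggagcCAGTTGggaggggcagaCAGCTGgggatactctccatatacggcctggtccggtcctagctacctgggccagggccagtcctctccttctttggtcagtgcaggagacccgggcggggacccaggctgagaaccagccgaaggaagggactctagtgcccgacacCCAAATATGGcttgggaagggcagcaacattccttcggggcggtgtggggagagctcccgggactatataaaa
Actc1: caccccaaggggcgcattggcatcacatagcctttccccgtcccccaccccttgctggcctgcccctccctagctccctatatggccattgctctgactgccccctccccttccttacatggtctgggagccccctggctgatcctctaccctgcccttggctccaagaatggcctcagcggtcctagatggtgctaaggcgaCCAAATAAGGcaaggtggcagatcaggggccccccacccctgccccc

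Values are log2 of the normalised intensity, with the probe sets of each gene averaged, and changes are differences of group means ± SE from limma. A gene was called up- or down-regulated at a fold change of 2 or more with a Benjamini-Hochberg adjusted p under 0.001 over all 18194 genes, and below only called genes are said to have risen or fallen. The 13 arrays of whole embryo and of forelimb at E9.5 differed from the 38 later limb arrays in their control probe sets. The Gapdh 3′ probe set exceeded the 5′ one by 1.48 to 2.85 in the 13 arrays and by -0.096 to 0.164 in the 38. For comparisons of later limbs with whole embryo, this difference and tissue cannot be told apart. Among limb arrays, hindlimb E10.5 replicate 3 was high in the members (mean over members 5.56, against 4.80 to 4.97 in the others) and high in all 9 neural markers, whose summed intensity was 1867 against a group median of 253. Forelimb E10.5 replicate 4 (mean 5.37, others 4.81 to 4.96) was also high, with 7 of 9 neural markers above the group mean, and hindlimb E12.5 replicate 1 was low (6.64, others 7.10 to 7.23). For 2 arrays, titled hindlimb E11.5 and forelimb E12.5, other labels disagreed with the title, which was used, and no count changed by over 1.5 times without them. Counts without the 3 arrays that stood apart, chosen after seeing the data, are given where they changed by over 1.5 times.

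Most members had risen in both limbs by E13.5, and their rises began at different stages. In forelimb 26 of 43 rose from E10.5 to E11.5, when 1.71% of all genes rose, 37 by E12.5 (3.62% of all genes) and 40 by E13.5 (5.43%). The median change over the members was 1.58, 2.55 and 3.73 at these stages, against 0.00, -0.03 and -0.03 over all genes. In hindlimb 17 rose to E11.5 (1.95% of all genes), 27 to E12.5 (3.52%) and 36 to E13.5 (5.99%), with medians of 0.90, 1.87 and 2.89. The only member that fell against E10.5 was Eno3, the muscle enolase, in forelimb at E11.5 (0.363% of all genes fell) and in hindlimb at E12.5 (1.25%). At E13.5 no member had fallen in hindlimb, when 5.16% of all genes had. When each limb comparison was fitted on its own groups alone, the count for hindlimb E11.5 dropped from 17 to 4, and with an offset of 32 added before the log it was 6. The SE pools all groups, but the spread was unequal. In hindlimb the SD of Myh3 was 1.21 at E11.5 and 0.13 at E13.5, that of Acta1 1.22 and 0.23, and that of Tnni2 0.13 at both. In the heat map of changes against E10.5, the thin and thick filament groups at the top had the largest median changes at E13.5 in both limbs.

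**Figure D1:**
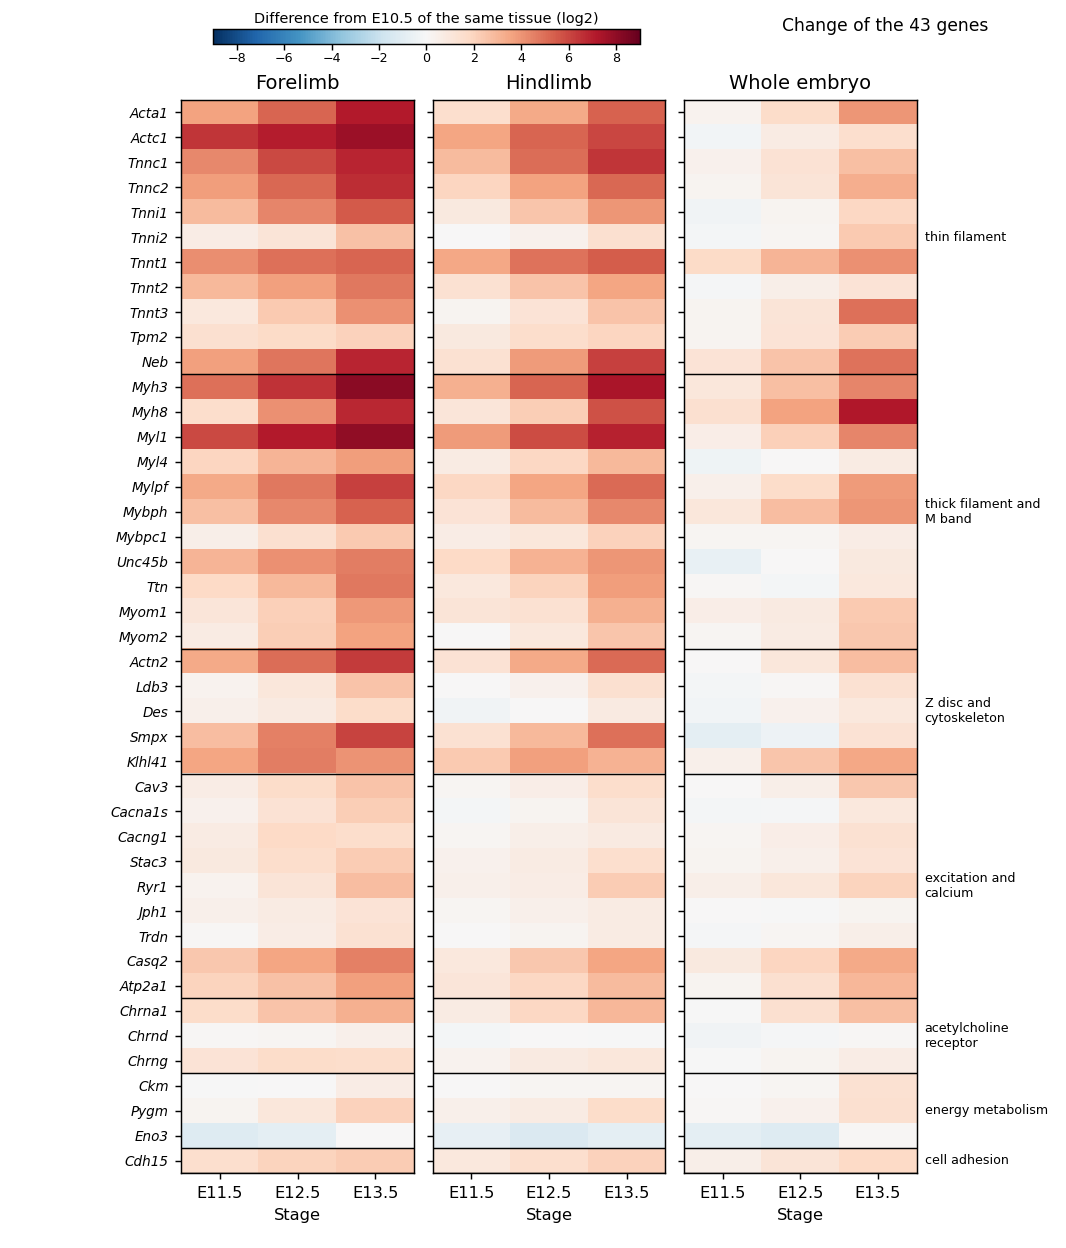
Log2 change of each of the 43 genes (rows, grouped by role) at E11.5, E12.5 and E13.5 against E10.5 of the same tissue, for forelimb, hindlimb and whole embryo (panels). The strongest colours lie in the thin and thick filament rows of both limbs at E13.5, where Myh3 reached 8.12 in forelimb and 7.38 in hindlimb, and among the limb panels the weakest rows were those of Chrnd and Ckm.

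The onset of a gene was taken as the first stage above E10.5 from which it stayed called. In forelimb E11.5 was the onset of 26 members, E12.5 of 11 and E13.5 of 3, against 1.45%, 1.65% and 2.33% of all genes. In hindlimb 17, 10 and 9 members had their onset at these stages, against 1.61%, 1.54% and 2.84% of all genes. No member had an earlier onset in hindlimb than in forelimb. There were 17 genes with onset at E11.5 in both limbs, 2 at E12.5 in both (Tnnt3 and Mybpc1), and 17 with a later onset in hindlimb, among them Acta1, Ttn, Chrna1 and Ryr1. A further 4 had an onset in forelimb and none in hindlimb (Cacng1, Des, Jph1 and Trdn), and 3 had none in either (Chrnd, Ckm and Eno3). A difference in onset stage is a difference in where calls fell. By the share of the log2 rise to E13.5 reached at E11.5, Ryr1, Mybpc1, Myom1 and Pygm stood higher in hindlimb than in forelimb. The values were 21.6% against 12% for Ryr1, 33.9% against 23.3% for Mybpc1 and 35.7% against 27.2% for Myom1. Every other member called up at E13.5 in both limbs had the larger share in forelimb. In hindlimb at E11.5 Ttn (0.95, limma adjusted p = 4.53e-05) and Chrna1 (0.77, limma adjusted p = 2.88e-05) missed only the fold threshold. The hindlimb calls at E11.5, on which these onsets rest, were fewer under the other fits given above. For the pairs of onsets in the 2 limbs, the shares over all genes were not computed. The forelimb and hindlimb changes are tested against each other further on. At E11.5 that test called only Neb, whose onset was E11.5 in both limbs, and no member with a later onset in hindlimb.

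Genes of the thin filament had the largest median change of the 7 groups. All 11 were up-regulated at E13.5 in both limbs, with a median change of 5.55 in forelimb and 5.18 in hindlimb, and 9 were already up at E11.5 in forelimb against 6 in hindlimb. Of all genes 5.43% and 5.99% were up at E13.5 in forelimb and hindlimb, and 1.71% and 1.95% at E11.5. Cardiac actin Actc1, the actin of embryonic skeletal as well as heart muscle, read 5.39, 5.63, 4.61, 8.86 and 5.66 at E10.5 in the forelimb arrays, and by E11.5 it read 12.17, 12.45, 12.58 and 12.57. It was higher in every E11.5 array than in any E10.5 array, replicate 4 included, by 6.41 ± 0.58 (adjusted p = 7.59e-12). By E11.5 Actc1 had reached 83.6% of its rise to E13.5 on the log2 scale in forelimb and 59.5% in hindlimb. All values lay between 2.29 and 14.79, and whether closeness to either end compresses such shares was not tested. Skeletal actin Acta1 had reached 50.2% and 28.2%. In hindlimb at E10.5 Acta1 read 5.48, 5.59, 8.29 and 5.64, so that the 9.01, 9.09, 7.28, 6.43 and 6.97 of E11.5 overlapped them only through replicate 3, and the change of 1.51 ± 0.42 was not called (adjusted p = 0.00498).

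Among the troponins, which confer calcium sensitivity, the slow forms of troponin T and troponin I had reached a larger share of their rise at E11.5 than the fast forms. Slow troponin T, Tnnt1, was at 79.2% of its forelimb rise by E11.5 (4.17 ± 0.23, adjusted p = 4.26e-18). Fast troponin T, Tnnt3, was at 22.4% and fast troponin I, Tnni2, at 25.8%, neither called until E12.5. Tnni1, the slow troponin I, stood at 51.8%. The forms of troponin C differed less, with the slow and cardiac Tnnc1 at 63.5% and the fast Tnnc2 at 56.9%, both called at E11.5. The 3 probe sets of Tnni2 changed by 0.269 to 4.27 in forelimb to E13.5. With the one of highest mean Tnni2 was called at E11.5. The forelimb arrays of Tnnt3 read 5.18, 4.85, 5.24, 5.05 and 4.94 at E10.5 and 5.82, 5.95, 6.04 and 6.10 a day later. They read 6.69, 7.6, 7.59, 7.79 and 7.44 at E12.5, then 8.89, 9.34, 9.11, 9.24 and 9.31 at E13.5. Each stage lay wholly above the one before. In hindlimb Tnni2 was at 0.9% at E11.5, and its change there was 0.01 ± 0.09 (adjusted p = 0.929). Tropomyosin 2 (Tpm2) rose 1.43 ± 0.10 in forelimb to E11.5, and nebulin (Neb), the giant protein that runs along the thin filament, rose 3.72 ± 0.26.

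All 11 genes of the thick filament and M band rose to E13.5 in both limbs (5.43% and 5.99% of all genes), with medians of 4.73 and 3.96. At E11.5 9 in forelimb and 7 in hindlimb had risen (1.71% and 1.95% of all genes). The alkali light chain Myl1 read 4.24, 4.34, 3.94, 6.87 and 5.08 in E10.5 forelimb and 10.39, 10.80, 10.96 and 11.06 a day later, a rise of 5.91 ± 0.38 (adjusted p = 3.96e-16) and 74.3% of that to E13.5. Embryonic myosin heavy chain, Myh3, rose 4.99 ± 0.46 over the same interval and 8.12 ± 0.43 to E13.5, the largest change among the members. The perinatal heavy chain, Myh8, was called from E11.5 too but made most of its rise afterwards. Its forelimb arrays read between 3.51 and 3.81 at E10.5, between 4.73 and 5.46 at E11.5, between 7.0 and 8.11 at E12.5 and between 10.40 and 10.46 at E13.5, with no overlap between stages. Myh8 stood at 23.2% of its rise at E11.5 where Myh3 stood at 61.4%.

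Among the proteins that hold the thick filament, the myosin chaperone Unc45b was at 67.1% of its forelimb rise at E11.5 and the M-band proteins Myom1 and Myom2 at 27.2% and 20.8%. Myom1 was nevertheless called from E11.5 in both limbs, and Myom2 from E12.5 in forelimb and E13.5 in hindlimb. Slow myosin-binding protein C, Mybpc1, was at 23.3%, and titin (Ttn), which spans from Z disc to M band, at 37.8%. Titin rose 1.79 ± 0.18 to E11.5 and 4.73 ± 0.17 to E13.5 in forelimb, and 0.95 ± 0.18 (not called) and 3.73 ± 0.18 in hindlimb.

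**Figure D2:**
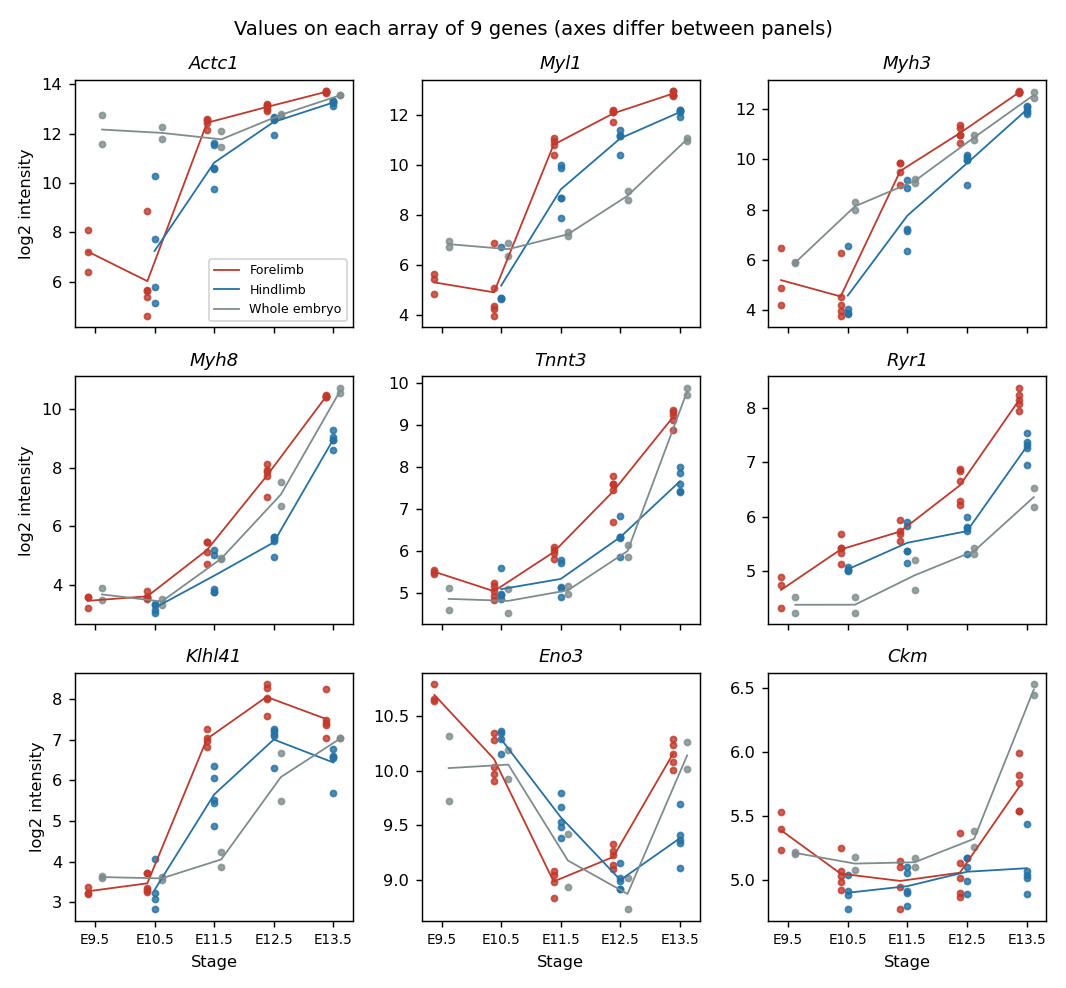
Log2 intensity of 9 members by stage in forelimb, hindlimb and whole embryo; each point is 1 array, lines join group means, and tissues are shifted sideways for legibility. Actc1 and Myl1 climbed mostly between E10.5 and E11.5 in forelimb and Myh8, Tnnt3 and Ryr1 mostly after E11.5, while Klhl41 stood lower at E13.5 than at E12.5 and Eno3 dipped.

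Genes of the Z disc and cytoskeleton differed widely in the share of their rise reached at E11.5. Klhl41, a kelch protein of the sarcomere, was at 87.9% of its forelimb rise at E11.5 (3.55 ± 0.25) and at 113.5% at E12.5. Its forelimb arrays read 7.59, 8.01, 8.04, 8.28 and 8.37 at E12.5 and 7.41, 7.04, 7.49, 7.35 and 8.26 at E13.5, and its hindlimb arrays 6.30, 7.22, 7.11, 7.26 and 7.15 and then 6.60, 6.77, 6.59, 5.70 and 6.55. The stages overlapped in both limbs, and the drop was not called. Muscle alpha-actinin (Actn2), which cross-links actin at the Z disc, was at 53.9% and the small costameric protein Smpx at 45.9%. Ldb3, a PDZ and LIM protein of the Z disc, was at 13.7% in forelimb and 0.6% in hindlimb. Desmin (Des), the intermediate filament of muscle, rose to E13.5 in forelimb (1.69 ± 0.14) and changed by 0.79 ± 0.14 in hindlimb, below the fold threshold.

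Of the genes of excitation and calcium handling fewer were called early. At E11.5 2 of 9 were up in forelimb and 1 in hindlimb (1.71% and 1.95% of all genes), and at E13.5 9 and 6 (5.43% and 5.99%). Some read low: in E13.5 hindlimb Trdn averaged 3.88, Cacng1 4.85 and Cacna1s 4.98, under the median of 5.31 over all values. The others averaged 6.28 (Jph1) or more there. For the low ones a late call and a weak signal cannot be told apart. The fold threshold also delays the call of a gene with a small rise, such as Jph1 (1.23 in forelimb to E13.5). By E11.5 in forelimb Jph1 had reached 37.8% of its rise, Stac3 40.4% and Cacng1 44.3%, all uncalled. Ttn (37.8%), Myom1 (27.2%) and Myh8 (23.2%) were called there. Cav3 (24.6%), Cacna1s (18%), Ryr1 (12%) and Trdn (9.7%) had smaller shares than Ttn. The excitation and calcium genes called at E11.5 were the calcium pump of the sarcoplasmic reticulum, Atp2a1 (1.97 ± 0.17 in forelimb, 1.08 ± 0.17 in hindlimb), and, in forelimb, the calcium-binding store protein Casq2 (2.44 ± 0.25). The ryanodine receptor Ryr1, the release channel, read 5.67, 5.33, 5.43, 5.42 and 5.13 in forelimb at E10.5 and 5.74, 5.55, 5.68 and 5.94 a day later. It read 6.22, 6.29, 6.66, 6.87 and 6.84 at E12.5, then 8.38, 8.08, 8.25, 7.94 and 8.15 at E13.5. Its E11.5 arrays overlapped those of E10.5 (0.33 ± 0.15, adjusted p = 0.122), and both later stages lay above. The channel's voltage sensor Cacna1s was at 18% of its rise at E11.5 in forelimb and 59.1% at E12.5, with corresponding values of 12% and 42.8% for Ryr1.

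The adaptor Stac3, needed to couple that sensor to release, was at 40.4%, and the gamma subunit Cacng1 was at 44.3% at E11.5 and 110.2% at E12.5. Triadin (Trdn) and junctophilin 1 (Jph1), proteins of the contact between the calcium store and the transverse tubule, were called only at E13.5 and only in forelimb (1.35 ± 0.07 and 1.23 ± 0.08). In hindlimb they changed by 0.73 ± 0.07 and 0.74 ± 0.09, short of the fold threshold although the adjusted p was 6.58e-12 and 1.24e-09. Caveolin 3 (Cav3), the muscle caveolin, rose 2.58 ± 0.17 in forelimb and 1.56 ± 0.18 in hindlimb.

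**Figure D3:**
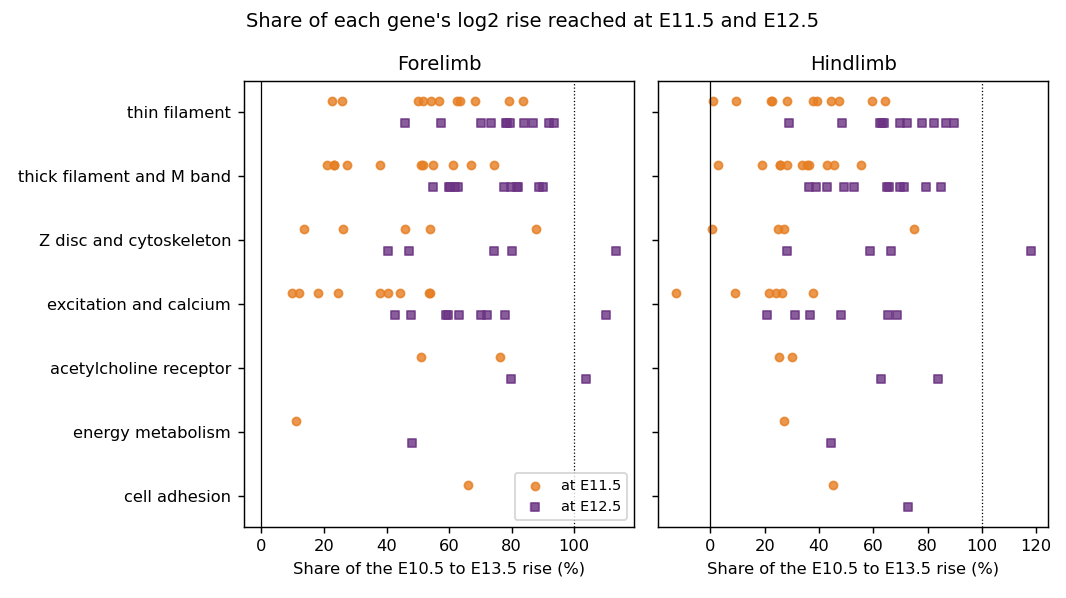
Percent of the log2 rise from E10.5 to E13.5 reached at E11.5 (circles) and at E12.5 (squares), per member called up at E13.5, grouped by role, for forelimb and hindlimb (panels). In forelimb the circles ran from 9.7% for Trdn to 87.9% for Klhl41, and in hindlimb from -12.8% for Cacna1s to 74.9% for Klhl41.

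Of the acetylcholine receptor subunits, Chrna1 and Chrng rose and Chrnd did not pass. Chrng, the gamma subunit of the fetal receptor, read 3.99, 4.14, 3.86, 4.25 and 4.11 in forelimb at E10.5, 4.95, 5.27, 5.38 and 5.48 a day later and 5.49, 5.61, 5.53, 5.60 and 5.98 at E13.5. Every E11.5 array was above every E10.5 array, with 76.4% of the rise reached (1.20 ± 0.11). In hindlimb Chrng was called only at E13.5 (1.00 ± 0.11), at the fold threshold. The alpha subunit Chrna1 rose 3.20 ± 0.13 in forelimb and 3.01 ± 0.14 in hindlimb to E13.5. Chrnd differed by 0.44 ± 0.09 in forelimb and by -0.00 ± 0.10 in hindlimb (95% interval -0.202 to 0.197).

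Of the 3 enzymes only Pygm was called up in the limbs. Eno3 was high at E10.5 in forelimb (10.04, 9.97, 10.28, 10.35 and 9.91), lower in all arrays at E11.5 (9.07, 8.98, 9.05 and 8.83), and back at 10.08, 10.29, 10.01, 10.16 and 10.23 at E13.5. The E11.5 change was -1.13 ± 0.11 (adjusted p = 4.51e-11). In hindlimb Eno3 read 9.33, 9.41, 9.10, 9.69 and 9.37 at E13.5, below each of its E10.5 arrays of 10.29, 10.35, 10.15 and 10.36, but short of the fold threshold (-0.91 ± 0.11). Muscle creatine kinase, Ckm, read 5.54, 6.0, 5.75, 5.82 and 5.54 in forelimb at E13.5, above all its E10.5 arrays (4.92 to 5.24) by 0.68 ± 0.10, and changed by 0.19 ± 0.10 in hindlimb. Glycogen phosphorylase, Pygm, rose 2.09 ± 0.13 and 1.66 ± 0.14. M-cadherin (Cdh15), the adhesion molecule of myoblasts, was at 65.9% of its forelimb rise at E11.5 and 45.3% of that in hindlimb.

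Averaging probe sets lowered some of these values. Of the 43 genes 29 had 1 probe set and 14 had several, and for 6 of the latter 1 probe set rose by 2 or more in forelimb to E13.5 while another stayed under 0.5: Chrng, Des, Myl4, Myom2, Tnni2 and Trdn. In Myl4, an embryonic light chain, they ranged from 0.117 to 7.35, and in Myom2 from 0.138 to 6.29. With the probe set of highest mean in place of the average, Ckm was called at E13.5 in forelimb (1.29), Des, Jph1 and Trdn in hindlimb (1.58, 1.20 and 1.01), and Tnni2 and Myom2 already at E11.5 in forelimb, while Tpm2 dropped under the fold threshold in forelimb (1.00) and in hindlimb (0.85) at E13.5. The share of rise of the members with several probe sets is thus less certain than that of Actc1, Myl1, Myh3 or Myh8, each with 1.

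Consecutive stages were compared within each limb. Between E11.5 and E12.5 in forelimb 11 members rose (0.599% of all genes), led by Myh8 (2.52 ± 0.22), Smpx (1.74) and Actn2 (1.63). The count was 6 without forelimb E11.5 replicate 1 and 17 without the 3 arrays that stood apart. Between E12.5 and E13.5 in forelimb 16 rose (1.42%), led by Myh8 (2.72 ± 0.21), Neb (2.05) and Acta1 (1.91), with Ryr1 at 1.58 ± 0.14. In hindlimb 19 rose between E11.5 and E12.5 (0.583%), led by Neb (2.46 ± 0.25), Tnnc1 (2.15) and Actn2 (2.14), and 12 without hindlimb E11.5 replicate 3 or 4. Between E12.5 and E13.5 20 rose (1.55%), led by Myh8 (3.51 ± 0.21), Neb (2.32) and Myh3 (2.12), and none fell (0.396%). Fitted on its own groups alone, the hindlimb count from E11.5 to E12.5 was 2.

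Forelimb and hindlimb were compared at the same stage to ask how far the members differ between limbs. Arrays of both limbs were treated as independent, although they may share embryos, which the labels do not say. At E10.5 no member differed by limma (0.418% of all genes were higher and 0.148% lower in forelimb), 8 had an unadjusted p under 0.05, and the 95% interval of 36 of 43 lay within 2-fold. The median difference was -0.04. At E11.5 10 members were higher in forelimb (0.313% of all genes) and 0 lower (0.0989%), with a median difference of 0.85 and 42 of 43 positive. At E12.5 10 were higher (0.462%), with a median of 0.96, and at E13.5 6 (0.236%), with a median of 0.78 and all 43 positive. No member was lower at E12.5 or E13.5 (0.044% and 0.0495% of all genes); of the 43, 2 and 0 had a negative difference there.

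At E11.5 the largest difference was that of Neb. Its forelimb arrays read 5.95, 6.96, 7.46 and 7.12, and its hindlimb arrays 4.98, 5.31, 3.72, 3.52 and 4.56. The limbs did not overlap and differed by 2.45 ± 0.26 (adjusted p = 8.73e-09). Chrna1 read 7.47, 7.78, 8.02 and 7.92 against 6.65, 6.46, 6.49, 6.08 and 6.38, again without overlap (1.39 ± 0.14, adjusted p = 1.99e-09). The others called were Actn2, Mybph (a myosin-binding protein), Tnnt1, Smpx, Casq2, Klhl41, Unc45b and Atp2a1, between 1.05 and 1.90. Myh3 differed as much (1.77 ± 0.46) but was not called (adjusted p = 0.0131), its hindlimb arrays reading 8.88, 9.19, 7.17, 6.38 and 7.24. Hindlimb replicates 1 and 2 were above their group mean in 38 and 41 of the 43 genes and replicates 3, 4 and 5 in 9, 5 and 6. The count was 17 without hindlimb E11.5 replicate 2 and 18 without the 3 arrays that stood apart, and fitted on its own groups alone it was 1. With the replicate number as a block, no member was called.

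Of the 10 members called at E12.5, 4 had been called at E11.5 as well (Actn2, Chrna1, Mybph and Smpx), and the largest difference was that of Myh8. Myh8 at E12.5 read 7.0, 7.84, 7.71, 7.91 and 8.11 in forelimb and 4.95, 5.63, 5.62, 5.58 and 5.49 in hindlimb, a difference of 2.26 ± 0.21 (adjusted p = 8.20e-11). At E13.5 Myh8 still differed by 1.46 ± 0.21. Tnnt3 was the largest at E13.5, with 8.89, 9.34, 9.11, 9.24 and 9.31 in forelimb and 7.85, 7.6, 7.42, 8.01 and 7.42 in hindlimb (1.52 ± 0.17, adjusted p = 2.82e-08). In neither gene did the limbs overlap. The E12.5 calls also held Smpx (1.60), Mybph (1.51), Actn2 (1.39), Myom1 (1.19), Chrna1 (1.18), Cacng1 (1.10), Tnnt3 (1.09), Myom2 (1.05) and Cav3 (1.03). Those of E13.5 held Myom1 (1.15), Smpx (1.10), Ttn (1.00) and Cav3 (1.00), Ttn and Cav3 just at the fold threshold. The E12.5 count was 6 without forelimb replicate 4, 5 without hindlimb replicate 1 and 6 without the 3 arrays that stood apart. Actc1 differed by 0.60 ± 0.55 at E12.5 and 0.43 ± 0.55 at E13.5 (95% interval -0.679 to 1.54).

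**Figure D4:**
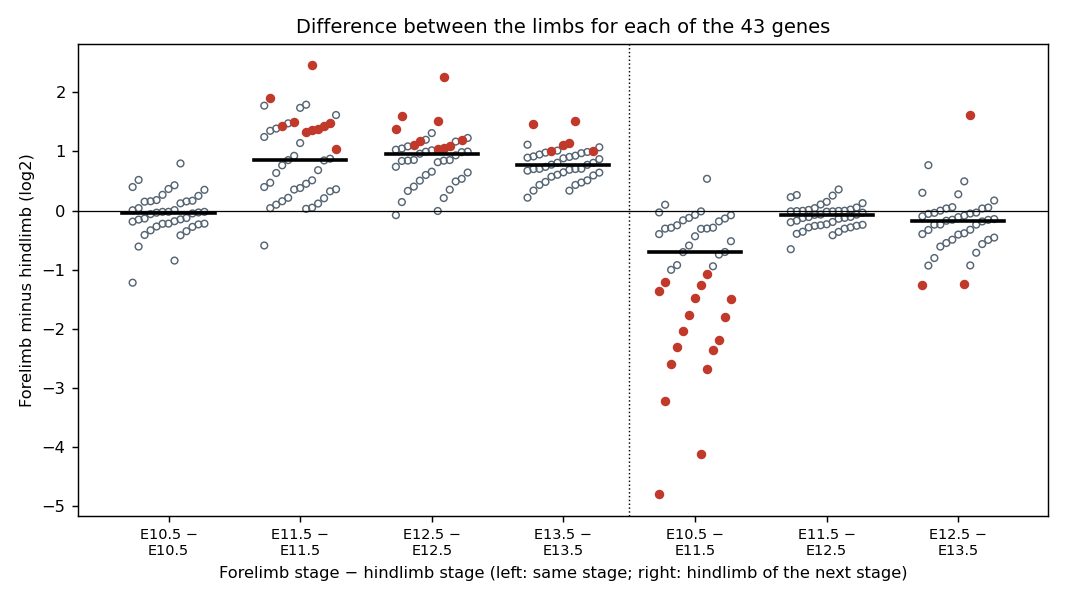
Forelimb minus hindlimb log2 difference of each member at the same stage (left) and against the hindlimb of the next stage (right); red points were called, and bars mark the median. The medians of the same-stage columns went from -0.04 at E10.5 to 0.85, 0.96 and 0.78, while that of E11.5 forelimb against E12.5 hindlimb was -0.07.

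Forelimb was also compared with the hindlimb of the next stage, since hindlimb development runs behind. In E11.5 forelimb against E12.5 hindlimb no member was called by limma (0.192% of all genes were higher and 0.0879% lower), 2 had an unadjusted p under 0.05, the differences ran from -0.65 to 0.36, and the 95% interval of 37 of the 43 lay within 2-fold. In E10.5 forelimb against E11.5 hindlimb 17 were lower in forelimb (0.747%), among them Actc1 (-4.80), Myl1 (-4.12) and Myh3 (-3.21). In E12.5 forelimb against E13.5 hindlimb 2 were lower (0.786%), Myh8 (-1.25 ± 0.21) and Neb (-1.24 ± 0.25), and 1 was higher (0.676%), Klhl41 (1.61 ± 0.24). There 31 of 43 intervals lay within 2-fold and the median was -0.17.

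The rise itself was tested between limbs as an interaction, which sets aside the level at E10.5. It was larger in forelimb for 1 member at E11.5, Neb (2.33 ± 0.37; 0.181% of all genes), for 4 at E12.5, Myh8 (1.86), Smpx (1.62), Myom2 (1.28) and Cacng1 (1.25; 0.368%), and for 4 at E13.5, Tnnt3 (1.57), Tnni2 (1.19), Myom2 (1.13) and Ldb3 (1.07; 0.291%). Without single arrays the E11.5 count ran up to 4, the latter without forelimb E10.5 replicate 4, and without the 3 arrays that stood apart the E12.5 count was 2. Fitted on own groups alone, no member was called at E11.5, Neb included, and 2 were at E12.5.

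Whole embryo holds heart and trunk muscle beside limb, and the members started there from a higher level in part. Against E9.5, no member was called at E10.5 by limma (6 had an unadjusted p under 0.05; 0.44% of all genes were higher and 0.115% lower). At E11.5 2 rose (2.5%), Myh3 (3.24 ± 0.68) and Tnnt1 (2.53 ± 0.34), and Smpx fell (-1.44 ± 0.30; 0.912% of all genes fell). At E12.5 14 rose (6.77%), Eno3 fell (-1.16 ± 0.16; 1.64%), and at E13.5 30 rose (11.3%), with all 43 changes positive at E13.5, led by Myh8 (6.95 ± 0.33), Myh3 (6.65 ± 0.68) and Neb (5.14 ± 0.39). These groups have 2 arrays each. On their own groups alone no member was called at any of these stages, and with each of the 4 arrays left out in turn the E11.5 count of genes that rose was 1. The fall of Smpx was lost without whole-embryo E11.5 replicate 1 and that of Eno3 without E9.5 replicate 1. Actc1 read 12.74 and 11.59 at E9.5 and 13.57 and 13.55 at E13.5. Its change of 1.39 ± 0.87 passed 2-fold but was not called (limma adjusted p = 0.187). Ckm rose in whole embryo, from 5.20 and 5.22 to 6.45 and 6.53 (1.28 ± 0.15).

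At E9.5 forelimb and whole embryo were on arrays of the same set, and 10 members were lower in forelimb (1.61% of all genes), with none higher (2.08%). They were Actc1 (-4.94 ± 0.80), Tnnc1 (-4.19 ± 0.57), Unc45b (-4.06 ± 0.30), Smpx (-3.68 ± 0.28), Tnnt2 (-3.39 ± 0.34), Myom1 (-2.75), Myl4 (-2.54), Actn2 (-2.21), Ttn (-1.24) and Ldb3 (-1.13). Most of these genes, such as the cardiac troponins Tnnc1 and Tnnt2, are also known from embryonic heart. The 14 heart markers summed to 3093 and 4666 in whole embryo at E9.5 and to between 351 and 364 in forelimb. The atrial peptide Nppa read 7.85 to 8.26 in whole embryo and 3.70 to 4.03 in forelimb. On its own groups alone this comparison called 1 member.

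In forelimb the higher members outnumbered the lower ones from E11.5 on. In hindlimb the lower ones far outnumbered the higher at E10.5. At later stages the hindlimb counts were small and shifted with single arrays, and at E12.5 and E13.5 they lay near the shares of all genes. In forelimb against whole embryo 15 members were lower and 1 higher at E10.5 (3.44% of all genes, and 1908 of the 18194), 1 lower and 11 higher at E11.5 (3.64% and 11.7%), 17 higher and none lower at E12.5 (8.52% and 5.44%), and 8 higher and none lower at E13.5 (5.54% and 8.12%). At E11.5 Myl1 led with 3.59 ± 0.49, reading 10.39, 10.80, 10.96 and 11.06 in forelimb and 7.31 and 7.13 in whole embryo, followed by Klhl41 (2.97) and Mylpf (2.13), the fast regulatory light chain. At E13.5 Ttn (2.44 ± 0.22), Mybpc1 (2.19 ± 0.16) and Ryr1 (1.80 ± 0.19) led. In hindlimb 15 were lower and none higher at E10.5 (3.41% and 9.77%), 5 lower and 1 higher at E11.5 (3.95% and 11.8%), 3 lower and 2 higher at E12.5 (5.43% and 7.11%) and 5 lower and 2 higher at E13.5 (8.35% and 6.1%), the latter 5 being Tnnt3 (-2.13), Myh8 (-1.67), Ckm (-1.40), Tnnt2 (-1.25) and Myom1 (-1.17). Probe sets of Ttn and Ryr1 disagreed on whole embryo. From E10.5 to E13.5 1 probe set of Ttn changed by 5.35 in forelimb and 0.516 in whole embryo, and another by 8.26 and 2.31. For Ryr1 1 probe set changed by 2.16 and 0.160, and another by 3.37 and 3.81. With the probe set of highest mean, no member was higher in hindlimb than in whole embryo at E13.5.

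Single whole-embryo arrays set several of these counts. The forelimb counts of genes higher at E12.5 and E13.5 were 11 and 5 without whole-embryo replicate 1. The forelimb count higher at E10.5 and that lower at E11.5 were 0 without 1 array, either whole-embryo E10.5 replicate 1 or forelimb E10.5 replicate 1, and either whole-embryo E11.5 replicate 2 or forelimb E11.5 replicate 1. The hindlimb count lower at E11.5 was 1 without whole-embryo replicate 2 and 3 without hindlimb replicate 3 or 4, and the count higher there 0 without whole-embryo replicate 2 and 2 without hindlimb replicate 4. The hindlimb counts lower at E12.5 and at E13.5 were 1 and 3 without whole-embryo replicate 2, and that higher at E12.5 was 1 without either whole-embryo array.

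**Figure D5:**
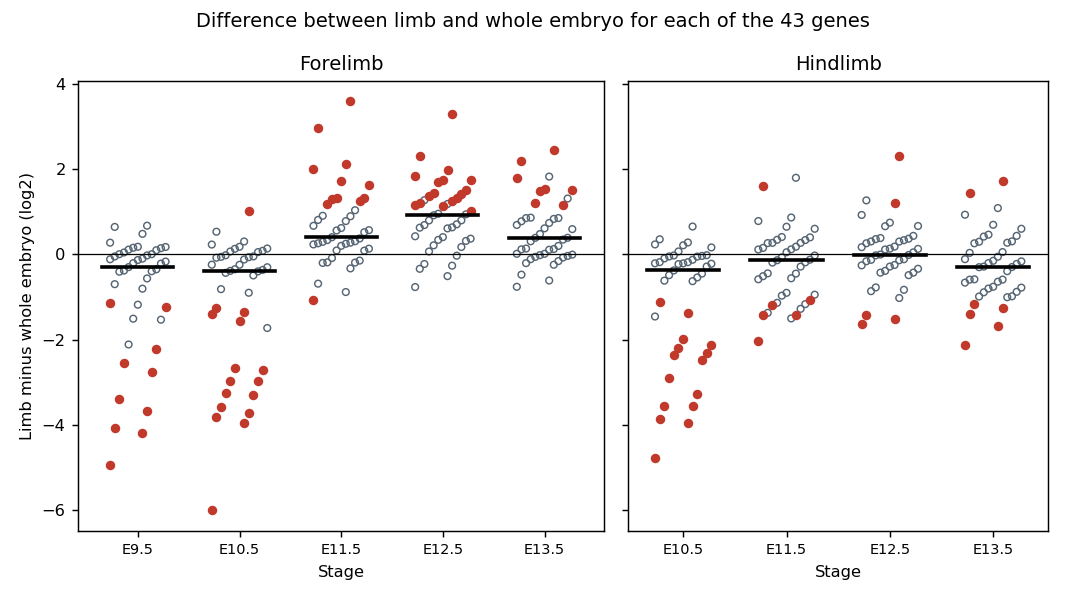
Limb minus whole embryo log2 difference of each member by stage, forelimb and hindlimb; red points were called, and bars mark the median. Forelimb points sank to -6.0 for Actc1 at E10.5, and most lay above 0 by E12.5, while hindlimb points stayed on both sides of 0.

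A constant offset between the sets of arrays cancels in the rise from E10.5, but one that changes with stage does not. In whole embryo the Gapdh 3′ excess was 2.628 and 2.556 at E10.5 and 2.025 and 1.923 at E13.5. Over all genes the rise at E13.5 was smaller in forelimb than in whole embryo for 9.87%. The rise was larger in forelimb than in whole embryo for 18 members at E11.5 (0.616% of all genes), 21 at E12.5 (1.26%) and 21 at E13.5 (2.47%). In hindlimb it was larger for 2, 6 and 9 (0.495%, 0.923% and 2.5%), and smaller at E13.5 for 2 (9.49%), Tnnt3 (-2.41 ± 0.33) and Ckm (-1.17 ± 0.18). The largest in hindlimb at E13.5 were Actc1 (4.49 ± 1.05), Smpx (3.70 ± 0.36) and Tnnc1 (3.68 ± 0.75). The E11.5 forelimb count was 10 without whole-embryo E10.5 replicate 1 or 2 or E11.5 replicate 2, and the E13.5 count 13 without whole-embryo E10.5 replicate 1 or E13.5 replicate 2. The hindlimb counts ran from 0 to 5, from 3 to 11 and from 6 to 12 when single arrays were left out, and were 7, 14 and 14 without the 3 arrays that stood apart, of which hindlimb E10.5 replicate 3 was one.

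Markers of other tissues were read beside these changes. The 14 heart markers summed to 250 to 502 in the limb arrays from E10.5 to E13.5 and to 1830 to 4666 in whole embryo, and the heart myosin Myh6 stayed between 2.91 and 3.37 in every one of those limb arrays. Of the 14, 2 rose in forelimb to E13.5, Sln (3.37) and Myl3 (1.19), both also expressed in skeletal muscle. None of the 7 liver markers was called from E10.5 to E13.5 in either limb, but Ttr was 1.25 higher in forelimb than in hindlimb at E12.5 (adjusted p = 0.000339), after a rise of 1.69 from E10.5. In forelimb to E13.5, of 9 neural markers 1 rose and 1 fell, of 8 smooth muscle markers 3 rose, of 9 cartilage markers 8 rose with a median of 3.08, and of 6 erythroid markers 5 fell with a median of -3.05. Of all genes 5.43% rose and 5.13% fell in forelimb to E13.5. The part of the markers in the members' changes was not tested.

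The regulators of muscle formation were taken from a list of 21, of which 19 were measured. In forelimb 9 rose and 4 fell to E13.5 (5.43% and 5.13% of all genes), with a median of 0.83. Myogenin (Myog), the factor of terminal differentiation, rose 4.10 ± 0.45 to E11.5 and 5.39 ± 0.42 to E13.5, and the fusion protein Mymx rose 3.53 and 4.87. Pax3, which marks migrating precursors, read 7.45 to 8.04 in forelimb at E10.5 and 5.13 to 5.83 at E11.5, and fell by 2.26 and then 2.84 to E13.5. In hindlimb it read 7.39 to 8.25 at E10.5 and 6.31 to 6.95 at E11.5. Lbx1, Met and Six4 fell as well in forelimb to E13.5 (-1.69, -1.75 and -1.17). Myf5, an early determination factor, was already at 7.77 ± 0.21 (SD, n = 5) in forelimb at E10.5 and at 5.65 ± 0.73 (SD, n = 4) in hindlimb, and rose 2.14 in hindlimb to E13.5. Of 45 measured further genes of the sarcomere and muscle membrane, 29 rose in forelimb and 18 in hindlimb to E13.5 and none fell, led in forelimb by the slow myosin Myh7 (5.17), Myot (5.12) and Myoz2 (4.88), 2 proteins of the Z disc. At E11.5 it was 11 and 3. Of all genes 5.43% and 5.99% rose to E13.5 in forelimb and hindlimb, and 1.71% and 1.95% to E11.5.

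Across the 38 limb arrays from E10.5 to E13.5 the members' mean was most closely followed, among genes that are not members, by Cryab, a small heat shock protein of muscle (Pearson r = 0.992), Ablim3 (0.991), Hjv (0.991), Myoz2 (0.989), Il17b (0.986), Fmod, an extracellular matrix proteoglycan (0.985), Srpk3, a kinase of striated muscle (0.984), and Mef2c, a myogenic transcription factor (0.984), and then by Mgp, Tgfb1i1, Arpp21 and Kdelr3 (0.983 each). Among the members themselves Mylpf (0.995) and Mybph (0.994) followed the mean of the others most closely and Chrnd (0.504) and Eno3 (-0.310) least. These correlations describe arrays that share stage and litter, so that every gene that climbs with stage ranks high.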

How the data were processed

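Total RNA of limb buds and whole embryos was two-cycle labelled and hybridised by the authors to Affymetrix whole-genome mouse arrays. The deposited values are RMA-normalised intensities on a linear scale (RMA version not given in the sources used here), and the authors replaced values of a damaged area on 1 array of E12.5 whole embryo. Of 45101 probe sets 34958 carried 1 gene symbol in the platform annotation, 932 carried several and 9211 had no entry there, and only the first were used. Values were log2 transformed, averaged per gene and fitted with limma 3.58.1 (R 4.3.3) as 14 groups over 51 arrays, with 37 residual degrees of freedom, Benjamini-Hochberg adjustment over 18194 genes, and a call at 2-fold and adjusted p under 0.001. The procedure was tested on simulated data. Groups followed the sample titles. Named genes were all members, the myogenic regulators, up to 4 called genes of largest E13.5 change per direction of each other list, and the 12 genes most correlated with the members' mean; the heart genes Myh6 and Nppa were added after their values were seen. The members and lists were chosen with earlier results of these data known. Tried as alternatives were the probe set of highest mean, quantile normalisation, an offset, a filter on low values, another prior, another p threshold, other sets of arrays and a replicate block. The number of arrays limits the precision.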

Additional observations from a re-analysis of the deposited data

Results flagged for a closer look

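A single array stood far from the others of its group in 43 of 352 values of members and of their mean that were tested (12.2%), where chance gives about 1 in 20 (5%). All values are log2 intensities. Hindlimb E12.5 replicate 1 was the lowest for 17 members and for their mean (6.64): Acta1 8.95, Actc1 11.95, Tnnc1 9.65, Tnni1 8.81, Myh3 9.0, Myh8 4.95, Myl1 10.39, Mylpf 9.5, Mybph 6.91, Actn2 7.09, Smpx 5.33, Klhl41 6.30, Cav3 4.95, Jph1 5.67, Casq2 7.05, Chrna1 6.97 and Chrnd 5.57. Forelimb E12.5 replicate 1 was the lowest for Myl1 (11.71), Myom2 (5.22) and Actn2 (9.01). Both arrays were also below their group in all 9 cartilage markers, by a mean of 0.575 and 0.549, and above it in 5 of 6 erythroid markers, by a mean of 0.316 and 0.488. The part of these markers in the members' values was not tested.

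Hindlimb E10.5 replicate 3 was the highest for Acta1 (8.29), Myh3 (6.56) and Myl1 (6.69) and the lowest for Mybpc1 (5.60), and was above its group in all 9 neural markers by a mean of 2.33. Forelimb E10.5 replicate 4 was the highest for Actc1 (8.86), Unc45b (4.94), Des (5.12) and the mean of the members (5.37). At E11.5 forelimb replicate 3 was the lowest for Mybpc1 (6.39) and replicate 1 for Unc45b (6.74). At E12.5 forelimb replicate 3 was the lowest for Cacna1s (4.45) and replicate 5 the highest for Atp2a1 (8.31). At E13.5 forelimb replicate 5 was the highest for Tnnc1 (12.61), Actn2 (10.85), Cav3 (8.18) and Chrng (5.98), replicate 2 the highest for Ldb3 (6.79) and the lowest for Jph1 (6.53), and replicate 4 the lowest for Unc45b (8.55). In hindlimb at E13.5 replicate 3 was the lowest for Mybph (8.96), and replicate 4 the highest for Ldb3 (5.74) and the lowest for Klhl41 (5.70).

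The rise from E10.5 differed between forelimb and hindlimb, by limma's interaction term, for Neb at E11.5 (2.33), for Myh8 (1.86), Smpx (1.62), Myom2 (1.28) and Cacng1 (1.25) at E12.5, and for Tnnt3 (1.57), Tnni2 (1.19), Myom2 (1.13) and Ldb3 (1.07) at E13.5. Fitted on own groups alone, none was called at E11.5 and 2 at E12.5. The rise was larger in forelimb than in whole embryo for 18 members at E11.5 and for 21 at each later stage, and larger in hindlimb than in whole embryo for 2, 6 and 9 in the same order, with 2 smaller at E13.5.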

How the results depend on the processing

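No change of direction was seen in any count or in any member called in the compared contrasts; the sign of values near 0 turned when single arrays were left out, for Eno3 in E13.5 forelimb (-0.0058 to 0.1038), Ckm in E11.5 forelimb (0.0151) and Chrnd in E13.5 hindlimb (-0.0957 to 0.0846, with 0.0053, 0.0147, 0.0244 and 0.0235). No count of members changed by over 1.5 times with a trended and robust prior or without the 2 arrays of conflicting labels. The other counts that did are given from the value reported to the alternative, and the causes were not tested except that fits on own groups alone have fewer arrays. The labels do not say whether fore- and hindlimb arrays of the same number came from the same embryo, and the numbers were not taken as pairs (correlation of deviations between same-numbered forelimb and hindlimb arrays from -0.11 to 0.347 over 18 pairs, 9 over 0.1, of which 4 of 5 at E12.5 and 3 of 5 at E13.5; 5 of 19 forelimb arrays correlated best with their own number). Every same-number pair at E12.5 and E13.5 correlated positively, the lowest at 0.032, and whether such pairs shared an embryo was not tested. With the replicate number as a block, the count higher in forelimb than in hindlimb at E11.5 went from 10 to 0 and that of hindlimb E11.5 over E10.5 from 17 to 0.

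With the probe set of highest mean, forelimb over hindlimb at E13.5 went from 6 to 10, E12.5 forelimb under E13.5 hindlimb from 2 to 4, forelimb under whole embryo at E11.5 from 1 to 2, hindlimb over whole embryo from 1 to 2 at E11.5, 2 to 1 at E12.5 and 2 to 0 at E13.5, whole embryo E11.5 up from 2 to 4, and the rise larger in forelimb than in hindlimb from 1 to 3 at E11.5 and 4 to 7 at E12.5. With quantile normalisation, forelimb over whole embryo at E11.5 went from 11 to 7, hindlimb under whole embryo at E13.5 from 5 to 8, whole embryo E12.5 down from 1 to 2, the rise larger in hindlimb than in whole embryo at E12.5 from 6 to 10, and forelimb onsets at E13.5 from 3 to 5. With an offset of 32, hindlimb E11.5 over E10.5 and hindlimb onsets at E11.5 went from 17 to 6, hindlimb onsets at E12.5 from 10 to 17, forelimb onsets from 11 to 7 at E12.5 and 3 to 5 at E13.5, hindlimb E12.5 over E11.5 from 19 to 12, forelimb over hindlimb at E12.5 from 10 to 5, E10.5 forelimb under E11.5 hindlimb from 17 to 8, forelimb against whole embryo from 1 to 0 up at E10.5 and 1 to 0 down at E11.5, hindlimb against whole embryo from 5 to 2 down at E11.5 and 2 to 1 up at E12.5, whole embryo E11.5 down from 1 to 2, and the rise larger in hindlimb than in whole embryo at E11.5 from 2 to 1. A filter on low values raised the count of larger rises in forelimb than in hindlimb at E11.5 from 1 to 2.

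At an adjusted p under 0.05, forelimb E12.5 over E11.5 went from 11 to 20, forelimb over hindlimb from 10 to 17 at E11.5 and 10 to 17 at E12.5, hindlimb against whole embryo at E11.5 from 1 to 2 up and 5 to 9 down, whole embryo from 0 to 1 up at E10.5, 2 to 7 up and 1 to 2 down at E11.5 and 1 to 2 down at E12.5, the rise larger in forelimb than in hindlimb to 14, 15 and 11, and that in hindlimb over whole embryo to 8, 16 and 16. Without the 3 arrays that stood apart, forelimb E12.5 over E11.5 was 17, forelimb over hindlimb 18 at E11.5 and 6 at E12.5, hindlimb over whole embryo at E11.5 was 2, the rise larger in forelimb than in hindlimb 2 at E11.5 and 2 at E12.5, and in hindlimb over whole embryo 7, 14 and 14. On own groups alone, hindlimb E11.5 over E10.5 was 4, hindlimb E12.5 over E11.5 was 2, forelimb over hindlimb 1 at E11.5 and 6 at E12.5, E10.5 forelimb under E11.5 hindlimb 6, forelimb under whole embryo 1 at E9.5 and 0 at E11.5, hindlimb against whole embryo at E11.5 0 in both directions, whole embryo 0 at E11.5, E12.5 and E13.5 in both directions, the rise larger in forelimb than in hindlimb 0 at E11.5 and 2 at E12.5, in forelimb over whole embryo at E11.5 9, and in hindlimb over whole embryo 0 at E11.5 and 3 at E12.5.

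With single arrays left out, counts of members up against E10.5 ranged from 25 to 26, 35 to 37 and 40 to 40 in forelimb and from 12 to 21, 26 to 27 and 35 to 36 in hindlimb, with 1 to 1 down in forelimb at E11.5 and in hindlimb at E12.5. Consecutive stages gave 6 to 14 and 13 to 18 in forelimb and 12 to 22 and 14 to 23 in hindlimb. Forelimb over hindlimb ranged from 0 to 0, 7 to 17, 5 to 11 and 4 to 7 from E10.5 to E13.5, E10.5 forelimb under E11.5 hindlimb from 12 to 20, and E12.5 forelimb against E13.5 hindlimb from 1 to 1 up and 2 to 2 down. Forelimb against whole embryo ranged from 9 to 10 down at E9.5, 14 to 17 down and 0 to 1 up at E10.5, 8 to 11 up and 0 to 1 down at E11.5, 11 to 18 up at E12.5 and 5 to 8 up at E13.5. Hindlimb against whole embryo ranged from 13 to 16 down at E10.5, 1 to 6 down and 0 to 2 up at E11.5, 1 to 3 down and 1 to 3 up at E12.5, and 3 to 7 down and 2 to 3 up at E13.5. Whole embryo against E9.5 ranged from 1 to 1 up and 0 to 1 down at E11.5, 10 to 11 up and 0 to 1 down at E12.5 and 24 to 30 up at E13.5. The rise larger in forelimb than in hindlimb ranged from 1 to 4, 4 to 6 and 3 to 6, in forelimb than in whole embryo from 10 to 20, 15 to 27 and 13 to 21, and in hindlimb than in whole embryo from 0 to 5, 3 to 11 and 6 to 12, with 2 to 4 smaller at E13.5. The small number of arrays, above all 2 for each whole-embryo stage, limits these counts, and a lone array left in a group was assumed to vary like the other groups.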
